A study of Mus musculus with 36 samples.

Results

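Pparg and 4 genes of lipid handling, Lpl, Cd36, Plin2 and Fabp4, were followed through a TGF-β1 time course in mouse common dendritic cell progenitors (CDP) and multipotent progenitors (MPP). Members were the genes whose array probe set carries 1 of these symbols alone, and each of the 5 had 1 such probe set, so 5 of 19938 measured genes are described. The 5 were chosen by their measured time courses in these arrays, that is, by their levels at 2 to 24 h against 0 h in both cell types. Their levels, their changes against 0 h and the differences between the cell types, untreated cells included, are therefore given as a description with no test. Tests are given for other genes, whose lists were also chosen with earlier results of these data known.

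CDP are progenitors limited to the dendritic cell lineage, and MPP are multipotent precursors of blood cells. The bone marrow cultures of mice that gave both held a set of cytokines, the cells were sorted by FACS, and RNA was measured at 0, 2, 4, 8, 12 and 24 h after the addition of 10 ng/ml recombinant human TGF-β1. The time course asked which genes differ after TGF-β1 in each cell type, and whether they do so alike. There were 12 groups of 3 biological replicates, 36 arrays in all, and the 0 h arrays are the untreated cells. No untreated arrays at later times were analysed here, so TGF-β1 and time after sorting cannot be told apart. The sources used here give no mouse strain, age or sex. One protocol text lists 6 h in place of 8 h, and the arrays are named 8 h here after their titles. All values are log2 intensities, on which 1 unit is a doubling, and each level is compared only with other levels of the same gene.

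PPARγ, the product of Pparg, is a nuclear receptor that binds fatty acids and related lipids and acts on DNA as a pair with an RXR receptor. In macrophages, dendritic cells and fat cells it is known to raise genes that take up, carry and store fatty acids, and the other four genes are known targets of PPAR receptors. Lpl encodes lipoprotein lipase, which frees fatty acids from circulating triglycerides, and Cd36 a scavenger receptor that brings fatty acids and oxidised lipoproteins into the cell. Fabp4 encodes a carrier of fatty acids in the cytosol, and Plin2 the perilipin that coats lipid droplets. TGF-β1 signals through receptor kinases and the Smad transcription factors.

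Of the 5 members, 3 had an entry in the RefSeq promoter table (build GRCm38.p6), Pparg with 3 start sites and Cd36 and Plin2 with 1 each. Lpl and Fabp4 are named only. The 250 bases before each start were searched on both strands for the PPAR and RXR element AGGTCANAGGTCA, its repeated unit AGGTCA, the Smad box CAGAC and the TATA box TATAAA. The repeated unit is part of the full element, so the first pair of motifs overlap. Some of the stretches with matches are shown because they hold the letters of a PPAR or Smad motif that stand before the starts of genes whose levels are described below. Capitals mark a repeated unit, a Smad box or a TATA box on either strand, and all lines run 5′ to 3′ on the strand of the gene.
Pparg start 2: tTTTATAtaagggacgcgaggAGGTCAaga
Pparg start 3: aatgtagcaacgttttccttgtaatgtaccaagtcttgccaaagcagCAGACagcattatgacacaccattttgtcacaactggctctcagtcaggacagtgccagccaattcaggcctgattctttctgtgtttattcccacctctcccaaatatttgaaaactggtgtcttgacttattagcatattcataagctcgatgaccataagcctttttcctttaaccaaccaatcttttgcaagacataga
Cd36 start 1: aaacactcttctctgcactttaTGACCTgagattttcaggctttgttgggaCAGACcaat
Plin2 start 1: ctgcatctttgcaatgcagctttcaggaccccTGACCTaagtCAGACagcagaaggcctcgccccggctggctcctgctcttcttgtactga

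The Pparg lines are the 30 bases before start 2 (chr6:115362319-115362348, + strand) and the 250 bases before start 3 (chr6:115421816-115422065, + strand), both inside the annotated gene. The Cd36 line holds the first 60 bases of its window (chr5:17836087-17836146, - strand), which also lies inside the gene. The Plin2 line holds the 92 bases that lie outside the annotated gene (chr4:86670218-86670309, - strand). None of the windows held the full PPAR and RXR element, which 0.0335% of 32851 windows of the same length held. A repeated unit stood before Pparg start 1, where no sequence is shown, and start 2, before Cd36 and before Plin2, against 14.0% of all windows. A Smad box stood before Pparg start 3, Cd36 and Plin2, against 42.2% of all windows. The TATA box before Pparg start 2, written TTTATA on the strand of the gene, was a motif that 12.4% of all windows held. These are matches of letters, and binding was not measured.

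Before treatment Pparg lay higher and Plin2 lower in CDP than in MPP, while the arrays of Lpl, Cd36 and Fabp4 overlapped. Pparg stood at 8.54, 8.79 and 9.21 in untreated CDP, against 7.95, 7.98 and 7.88 in untreated MPP. The groups did not overlap. The difference was 0.91 ± 0.12 (SE, n = 3 arrays each), or 1.88-fold. Plin2 stood at 10.69, 10.52 and 11.16 in untreated CDP, against 11.74, 11.92 and 11.72 in untreated MPP. All CDP arrays lay below all MPP arrays, by -1.003 ± 0.17 on average (2.00-fold).

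A gene was called where its limma adjusted p was under 0.01 and its log2 change was at least 1 in size. By this rule 2.81% of all genes were called between untreated CDP and untreated MPP. The members were not tested here, and of the 5 only the difference of Plin2 was past 1 in size. The size of the Plin2 difference dropped under 1 without CDP replicate 1 (-0.95), CDP replicate 2 (-0.87) or MPP replicate 2 (-0.94), and that of Pparg was past 1 without CDP replicate 1 (1.06). The direction held in each case. The difference was 0.13 ± 0.34 for Lpl, 0.14 ± 0.17 for Cd36 and 0.03 ± 0.06 for Fabp4.

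After TGF-β1 Pparg and Lpl stood well below their starting levels in CDP. Pparg, the receptor, was at 8.54, 8.79 and 9.21 in the 3 CDP replicates at 0 h, at 8.22, 8.24 and 8.55 at 2 h and at 7.98, 7.94 and 8.20 at 4 h. It was at 7.71, 7.81 and 7.88 at 8 h, at 7.71, 7.64 and 7.75 at 12 h and at 7.64, 7.54 and 7.41 at 24 h. From 4 h on every treated CDP array lay below every untreated CDP array, and at 2 h the highest treated array reached the lowest untreated one. The log2 change against 0 h was -0.51, -0.81, -1.05, -1.15 and -1.32 at the 5 times, each ± 0.11 (SE). At 24 h this was 2.49-fold lower, in 3 of 3 same-numbered pairs.

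Lpl, the extracellular lipase, had the widest course of the 5 members. Its CDP arrays were at 10.96, 10.73 and 11.18 at 0 h, at 10.03, 10.34 and 11.62 at 2 h and at 10.02, 9.25 and 10.07 at 4 h. They were at 8.93, 8.58 and 9.27 at 8 h, at 8.08, 7.91 and 8.68 at 12 h and at 7.48, 7.22 and 8.12 at 24 h. The groups did not overlap from 4 h on. The log2 change was -0.29 at 2 h, -1.17 at 4 h, -2.03 at 8 h, -2.73 at 12 h and -3.35 at 24 h, each ± 0.20, and the last is 10.2-fold lower. The value at 2 h turned on replicate 3, which stood above its own untreated array there. The lowest correlation between arrays of a group was also in CDP at 2 h (0.9855). Without replicate 3 at 2 h the change at 2 h was -0.58, a fit added after seeing the data.

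**Figure D1:**
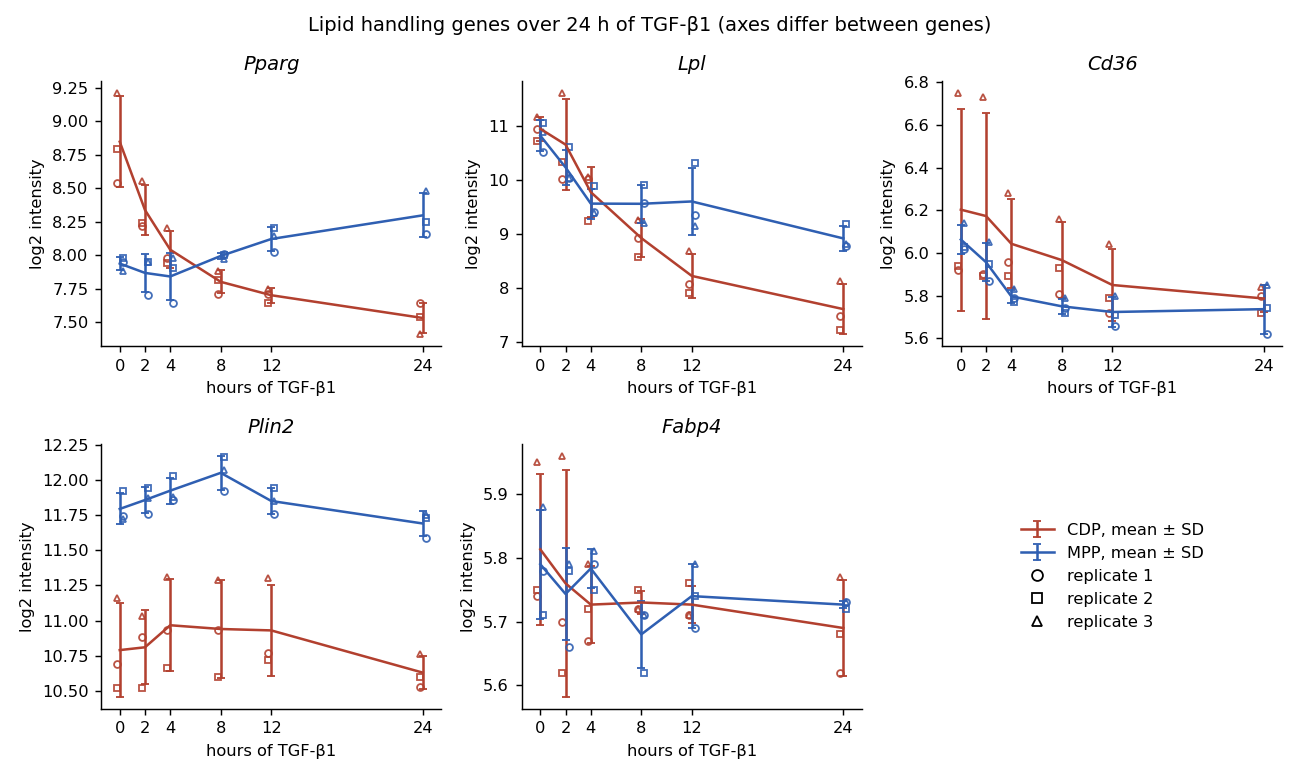
Log2 intensity of Pparg, Lpl, Cd36, Plin2 and Fabp4 against hours of TGF-β1, with 1 open symbol per array (circle, square and triangle for replicates 1, 2 and 3) and lines through the mean ± SD of 3 arrays, CDP in red and MPP in blue. At 24 h Pparg lies at 7.41 to 7.64 in CDP and at 8.16 to 8.48 in MPP, Lpl lies below its start in both, and Plin2 of CDP lies below that of MPP at every time.

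Cd36, the uptake receptor, differed little over time, and what it did depended on replicate 3. In CDP it was at 5.92, 5.94 and 6.75 at 0 h, at 5.90, 5.89 and 6.73 at 2 h and at 5.96, 5.89 and 6.28 at 4 h. It was at 5.81, 5.93 and 6.16 at 8 h, at 5.72, 5.79 and 6.04 at 12 h and at 5.80, 5.72 and 5.84 at 24 h. Replicate 3 was the highest of the 3 arrays at all 6 times. The change at 24 h was -0.41 ± 0.13 with all arrays and -0.17 without replicate 3. All 3 treated arrays lay below the untreated ones at 24 h, and at 2, 4, 8 and 12 h the groups overlapped.

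Plin2 and Fabp4 lay close to their starting levels in CDP. Plin2, the droplet coat gene, was at 10.53, 10.60 and 10.76 at 24 h and at 10.69, 10.52 and 11.16 at 0 h. The times between lay at 10.52 to 11.31, and the groups overlapped with 0 h at each of the 5 times. Its largest change was 0.18 ± 0.09, at 4 h, and at 24 h it was -0.16 ± 0.09. Fabp4 ran from 5.62 to 5.96 over all 36 arrays, a range of 0.34 in which no group stood apart from 0 h, and its change in CDP at 24 h was -0.13 ± 0.06. Its range of group means was wider than that of 13.5% of all genes. No detection calls were used here. Whether a level near 5.7, or that of Cd36 at 5.62 to 6.75, is above the background of the array was therefore not tested.

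As a description of size alone, the change in CDP was past 1 for Lpl at 4, 8, 12 and 24 h and for Pparg at 8, 12 and 24 h, and at no time for Cd36, Plin2 and Fabp4. The share of all genes called, by size and adjusted p, in CDP was 0.326% at 2 h, 0.702% at 4 h, 1.27% at 8 h, 1.86% at 12 h and 3.14% at 24 h. The members were chosen with this contrast known, so nothing is read from their count.

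In MPP Pparg lay above its start at the later times, by a smaller amount. It was at 7.95, 7.98 and 7.88 at 0 h, at 7.70, 7.95 and 7.95 at 2 h and at 7.64, 7.90 and 7.98 at 4 h. It was at 8.01, 8.00 and 7.97 at 8 h, at 8.02, 8.20 and 8.14 at 12 h and at 8.16, 8.25 and 8.48 at 24 h. From 12 h on every treated MPP array lay above every untreated one. The change was -0.07, -0.10, 0.06, 0.18 and 0.36 at the 5 times, each ± 0.07. At 24 h this was 1.28-fold higher, in 3 of 3 pairs.

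Lpl was lower at each treated time in MPP too, with a different shape. Its MPP arrays were at 10.52, 11.07 and 10.90 at 0 h, at 10.05, 10.62 and 10.05 at 2 h and at 9.42, 9.89 and 9.39 at 4 h. They were at 9.57, 9.91 and 9.21 at 8 h, at 9.35, 10.32 and 9.15 at 12 h and at 8.77, 9.18 and 8.81 at 24 h. The groups did not overlap from 4 h on. The change was -0.59, -1.26, -1.26, -1.22 and -1.91 at the 5 times, each ± 0.13, so that the means at 4, 8 and 12 h lay within 0.04 of each other on the log2 scale. The last value is 3.75-fold lower. Replicate 2 was the highest of the 3 MPP arrays at all 6 times.

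Cd36 in MPP was lower by a small amount that the replicates shared. Whether its level, like that of Fabp4, is above the background of the array was not tested. It was at 6.02, 6.03 and 6.14 at 0 h, at 5.87, 5.95 and 6.05 at 2 h and at 5.79, 5.77 and 5.83 at 4 h. It was at 5.74, 5.72 and 5.79 at 8 h, at 5.66, 5.71 and 5.80 at 12 h and at 5.62, 5.74 and 5.85 at 24 h. No treated array from 4 h on reached the untreated ones. The change was -0.26 at 4 h, -0.31 at 8 h, -0.34 at 12 h and -0.32 at 24 h, each ± 0.04, and leaving out 1 replicate at 24 h gave -0.34 to -0.29.

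Plin2 in MPP stood slightly above its start up to 8 h as a group mean and near its start again later. It was at 11.74, 11.92 and 11.72 at 0 h, at 11.92, 12.16 and 12.07 at 8 h and at 11.59, 11.73 and 11.75 at 24 h. The change was 0.26 ± 0.04 at 8 h, with 3 of 3 pairs higher, and -0.10 ± 0.04 at 24 h. The change of Fabp4 was -0.06 ± 0.04 at 24 h. By size alone, again as a description, the change in MPP was past 1 for Lpl at 4, 8, 12 and 24 h and for the other four members at no time. The share of all genes called in MPP was 0.271%, 0.416%, 0.657%, 0.737% and 1.2% at the 5 times.

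**Figure D2:**
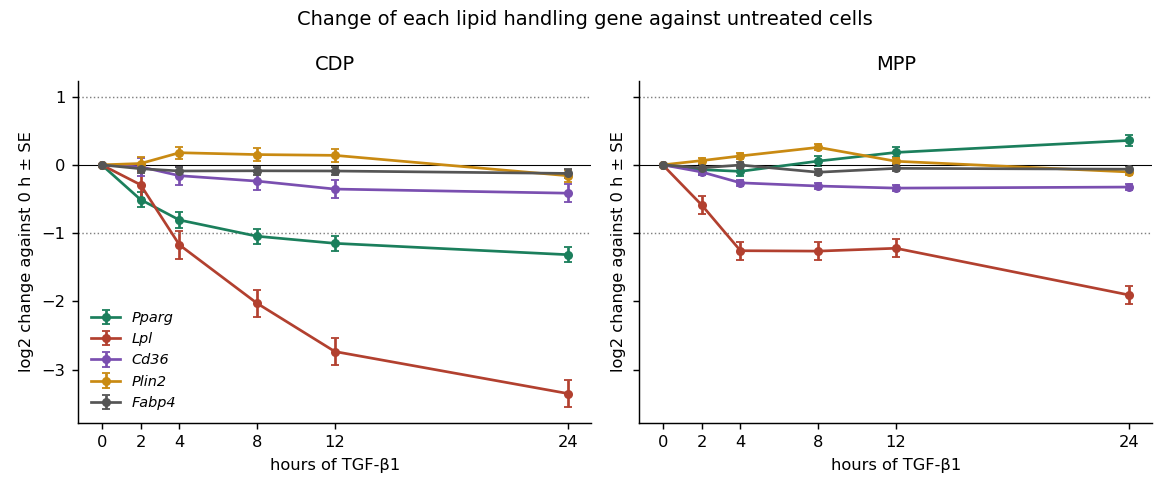
Log2 change against 0 h (mean of 3 arrays ± SE of the limma fit) of the 5 members over hours of TGF-β1, CDP on the left and MPP on the right, with dotted lines at 1 and -1. Lpl reaches -3.35 in CDP and -1.91 in MPP at 24 h, Pparg -1.32 in CDP and 0.36 in MPP, and the other members stay between the dotted lines.

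Set side by side, the change in CDP minus the change in MPP was -0.44, -0.71, -1.10, -1.33 and -1.67 for Pparg at the 5 times, each ± 0.14. At 8, 12 and 24 h all 3 CDP pairs were below 0 and all 3 MPP pairs above it, though at 8 h the MPP arrays overlapped with 0 h. For Lpl it was 0.29, 0.09, -0.76, -1.51 and -1.44, each ± 0.26. Up to 4 h the Lpl changes of the cell types thus lay within about 1 SE of each other, and from 12 h on CDP was lower by several SE. For Cd36, Plin2 and Fabp4 the difference at 24 h was -0.09 ± 0.14, -0.06 ± 0.10 and -0.06 ± 0.08. The difference was past 1 in size for Pparg at 8, 12 and 24 h and for Lpl at 12 and 24 h. The share of all genes called for their difference was 0.411% at 8 h, 0.727% at 12 h and 1.85% at 24 h. The difference holds the contrasts that chose the members, so nothing is read from this.

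The order of levels over the 12 groups differed from gene to gene. Pparg was highest in untreated CDP (8.85 as a mean) and lowest in CDP at 24 h (7.53). The step from untreated CDP to the next group, CDP at 2 h, was 0.51, against a pooled SD of 0.15 within groups, and the steps between most neighbours below it were smaller than that SD. Lpl was highest in untreated CDP (10.96) and untreated MPP (10.83), a step of 0.13 that is under its pooled SD of 0.44, and lowest in CDP at 12 h (8.22) and 24 h (7.61). The steps on either side of MPP at 24 h, to CDP at 8 h (0.01) and to CDP at 12 h (0.70), lay below and above that SD. For Plin2 all 6 MPP groups came before all 6 CDP groups, with a step of 0.72 between them and a pooled SD of 0.22. No step between neighbours exceeded the pooled SD for Cd36 (0.22) or Fabp4 (0.08).

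Over the 12 group means Pearson's r between Lpl and Cd36 was 0.69 in all, 0.998 over the 6 CDP means and 0.923 over the 6 MPP means. Between Pparg and Lpl it was 0.674 in all, 0.943 over the CDP means and -0.649 over the MPP means. These are descriptions. The means of a cell type share replicates and culture, and a common trend over time alone gives a high r.

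The genes most like each member over the 12 group means were looked up among some 2097 genes whose group means span at least 1 log2 unit. Lpl was closest to Lilr4b (r = 0.986), Pilrb2 (0.983), Fcgr4 (0.982), Clec4a2 (0.981) and Lilrb4a (0.97), genes of immune receptors found on myeloid cells. Cd36 was closest to Clec4a1 (0.96), Il18rap (0.943), Tmem106a (0.942), Ccl6 (0.939) and Dse (0.937). Several of these belong to families of near-identical copies, Lilr4b and Lilrb4a and the Clec4a genes among them, and their probe sets may share signal. Plin2, which separates the cell types, was closest to Nucb1 (0.995), Agtrap (0.994), Pde2a (0.994), the myeloid factor gene Cebpa (0.991) and Ppt2 (0.99). For Pparg the closest were Gask1b (0.852), Lratd2 (0.825), Clec4b1 (0.808), Klrk1 (0.791) and Osbpl3 (0.772). For Fabp4, which barely varied, they were Slc1a4 (0.826), Mthfd2 (0.821), Cth (0.8), Chac1 (0.799) and Cars (0.798).

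Some monocyte and macrophage markers fell in both cell types, in which Lpl was also lower, while Pparg was higher in MPP and Plin2 and Fabp4 lay near their start. In CDP 9 of 18 such markers were called lower at 24 h and none higher, and the mean over the 18 was 8.22 to 8.55 at 24 h, against 9.37 to 9.83 at 0 h. In MPP 3 of 18 were called lower and none higher, with a mean of 9.03 to 9.24 at 24 h, against 9.55 to 9.76 at 0 h. Of all genes 1.79% were called lower in CDP at 24 h and 0.487% in MPP. Adgre1, which encodes a surface antigen that defines macrophages, changed by -3.44 ± 0.17 in CDP and by -1.20 ± 0.08 in MPP. The array that was highest for the marker mean in CDP was replicate 3 at all 6 times, as it was for Lpl, Cd36 and Plin2 at all 6 and for Pparg at 5. In MPP replicate 2 was highest for the marker mean at 5 of 6 times, for Lpl at 6, for Plin2 at 5 and for Pparg at 2, while replicate 3 was highest for Cd36 and Fabp4 at 6 and for Pparg at 3. In bulk RNA fewer cells of a type and less RNA per cell cannot be told apart, and the part of these markers in the changes of Lpl, Cd36 and Pparg was not tested.

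**Figure D3:**
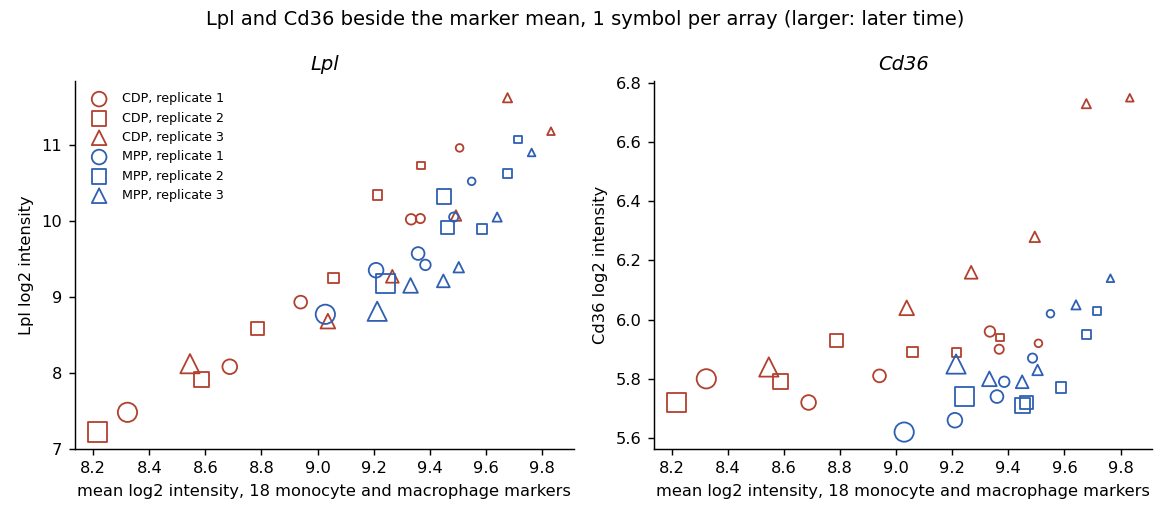
Log2 intensity of Lpl (left) and Cd36 (right) against the mean log2 intensity of 18 monocyte and macrophage markers, 1 symbol per array, CDP in red and MPP in blue, shaped by replicate and larger at later times. CDP arrays at 24 h have the lowest marker means (8.22 to 8.55), with Lpl at 7.22 to 8.12, and Cd36 of CDP replicate 3 lies above the other arrays up to 8 h.

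Other marker lists also held called genes at 24 h. The mean of 12 neutrophil markers in CDP was 7.81 to 8.27 at 24 h, against 8.62 to 9.0 at 0 h. In CDP 3 were called lower, Mmp8 (-5.14 ± 0.18), Ctsg (-3.59 ± 0.10) and Prtn3 (-1.35 ± 0.12), and 1 was called lower in MPP. Ngp was higher in CDP by 0.76 ± 0.10 (limma adjusted p = 5.06e-05), under the limit of size. The mean of 7 stem and multipotent progenitor markers in CDP was 9.18 to 9.43 at 24 h, against 8.72 to 8.82 at 0 h, with Kit called higher (2.79 ± 0.26). Under the limit of size, Gata2 and Cd34 changed by 0.93 ± 0.12 and 0.60 ± 0.10, and Hoxa9 by -0.39 ± 0.07. Of 10 dendritic cell markers 2 were called higher in CDP and 3 in MPP, and none lower. Under the limit of size in CDP, Cd209a and Clec9a changed by -0.76 ± 0.06 and -0.67 ± 0.10. Zbtb46, Flt3 and Batf3 changed by 0.71 ± 0.07, 0.65 ± 0.10 and 0.41 ± 0.07 there. Of all genes 1.35% were called higher and 1.79% lower in CDP at 24 h, and 0.717% and 0.487% in MPP. The part of these lists in the members' changes was not tested.

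Fat and endothelial cells also use these genes. Of 5 adipocyte and 6 endothelial markers none was called in either cell type at 24 h, and their means were 6.78 to 7.09 and 7.45 to 8.12 over all arrays. The highest endothelial mean was that of CDP replicate 3 at 2 h, the array on which the value of Lpl at 2 h turned, and the other 35 arrays lay at 7.45 to 7.68. The labels of the cells were checked against markers of their type. In untreated CDP 4 of 10 dendritic cell markers were higher than in untreated MPP, the integrin gene Itgax by 3.65 ± 0.17 and the cytokine receptor gene Flt3 by 2.14 ± 0.22 among them, and none was lower. Of 7 stem and multipotent progenitor markers 3 were lower in CDP, Kit and Cd34 among them. Untreated MPP also held high levels of granule genes of neutrophil precursors, and 10 of 12 neutrophil markers were lower in CDP. Of all genes 1.26% were called higher and 1.55% lower in untreated CDP than in untreated MPP.

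Beyond the members, 131 other genes in 8 lists were tested against 0 h by limma. Most act in lipid handling, and the lists of partners and upstream factors also hold general coactivators, myeloid factors and cytokine receptors. In CDP at 24 h 3 were called higher and 7 lower, in all 7.63% of the 131, against 3.14% of all genes, and the median change was 0.01 over the lists and 0.00 over all genes. In MPP 1 was called higher and 2 lower, 2.29% of the 131, against 1.2% of all genes. The lists were chosen with earlier results of these data known, so nothing is read from these shares. All called genes named below moved the same way in 3 of 3 pairs, and all adjusted p-values are over all genes.

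The lists of cholesterol efflux and of fatty acid binding proteins each had 1 call in CDP, both lower. In the efflux list, genes in both directions passed the p limit but not the limit of size. Npc1 changed by 0.89 ± 0.08 (adjusted p = 7.14e-07), Mylip by 0.33 ± 0.07 (adjusted p = 0.00218) and Npc2 by -0.29 ± 0.07 (adjusted p = 0.00899). Pltp, which encodes the phospholipid transfer protein of plasma lipoproteins, was at 8.27, 8.48 and 8.91 in CDP at 24 h, against 11.30, 11.44 and 11.14 in untreated CDP. It fell by 2.74 ± 0.15 (6.69-fold, adjusted p = 4.62e-09). Fabp5, the fatty acid carrier next of kin to Fabp4, was at 8.62, 8.62 and 9.13 in CDP at 24 h, against 10.29, 10.12 and 10.57 in untreated CDP, and fell by 1.53 ± 0.08 (adjusted p = 2.56e-09). The groups stood apart for both genes, so of the fatty acid carriers in CDP Fabp5 fell where the change of Fabp4 was -0.13.

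The list of lipoprotein and fatty acid uptake had 1 gene higher and 3 lower of 19 in CDP. The scavenger receptor genes Msr1 and Scarb1 changed by -1.55 ± 0.15 and -1.07 ± 0.09 (adjusted p = 1.70e-06 and 2.90e-07), and the lipoprotein receptor gene Vldlr by -1.13 ± 0.20 (adjusted p = 0.000464). Untreated Vldlr was at 8.92, 9.03 and 7.77, so that replicate 3 had started low. Vldlr lost the call without replicate 1 (-0.96), without replicate 2 (-0.92), and without the replicate block, the term for the replicate number in the fit (adjusted p = 0.0497). Acsl5, which activates long-chain fatty acids, rose by 1.00 ± 0.05 (adjusted p = 2.56e-09), at the limit of the call, which it lost without replicate 3 (0.95), as Scarb1 did without replicate 1 (-0.98). Msr1 also stands in the list of macrophage markers.

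The list of lipid droplets and storage had 2 of 26 genes called higher in CDP and none lower, with a list median of 0.01. Agpat3, which builds phospholipid, the triglyceride synthesis gene Dgat1 and the droplet coat gene Plin3 passed the p limit but not the limit of size (-0.93 ± 0.10, -0.68 ± 0.10 and -0.43 ± 0.09, adjusted p = 4.48e-06, 7.84e-05 and 0.00202). Nceh1, a hydrolase of cholesterol esters, was at 13.30, 13.55 and 13.39 in CDP at 24 h, against 10.90, 10.95 and 11.41 in untreated CDP, a rise of 2.33 ± 0.13 (5.02-fold, adjusted p = 9.15e-09). Mgll, which encodes the lipase that ends the breakdown of triglycerides, rose by 1.65 ± 0.17 (adjusted p = 4.26e-06). Both encode enzymes that split stored lipid. Other lipase genes passed the p limit but not the limit of size, in both directions. Lipa changed by -0.61 ± 0.07 (adjusted p = 6.83e-06), Lipe by 0.32 ± 0.05 (adjusted p = 0.000254) and Pnpla2 by 0.30 ± 0.05 (adjusted p = 0.000185). In another list, of 15 adipocyte genes under Pparg, Scd1 was called lower. Scd1, the desaturase that makes monounsaturated fatty acids, fell by 1.47 ± 0.17 (adjusted p = 1.07e-05, and 0.0701 without the replicate block). Cebpb, a factor known to act before Pparg in fat cell formation, fell by 1.28 ± 0.14 (adjusted p = 6.93e-06), the 1 call among 19 upstream genes.

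The partners of Pparg made no call. Of 14 PPAR and RXR receptors and coactivators none was called in CDP or MPP at 24 h, with Rxra at 0.07 ± 0.09 in CDP (adjusted p = 0.695) and Ppard at 0.13 ± 0.08 (adjusted p = 0.268). The coactivator genes Ncoa2 and Ncoa3 passed the p limit but not the limit of size. Ncoa2 was higher by 0.61 ± 0.06 in CDP (adjusted p = 4.60e-06) and 0.50 ± 0.04 in MPP (adjusted p = 4.08e-07), and Ncoa3 by 0.27 ± 0.05 in MPP (adjusted p = 0.00147). None of 20 genes of fatty acid oxidation was called at 24 h in either cell type. In CDP Acadl (0.67 ± 0.15, adjusted p = 0.00300) and Acaa2 (-0.47 ± 0.07, adjusted p = 8.14e-05) passed the p limit but not the limit of size.

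**Figure D4:**
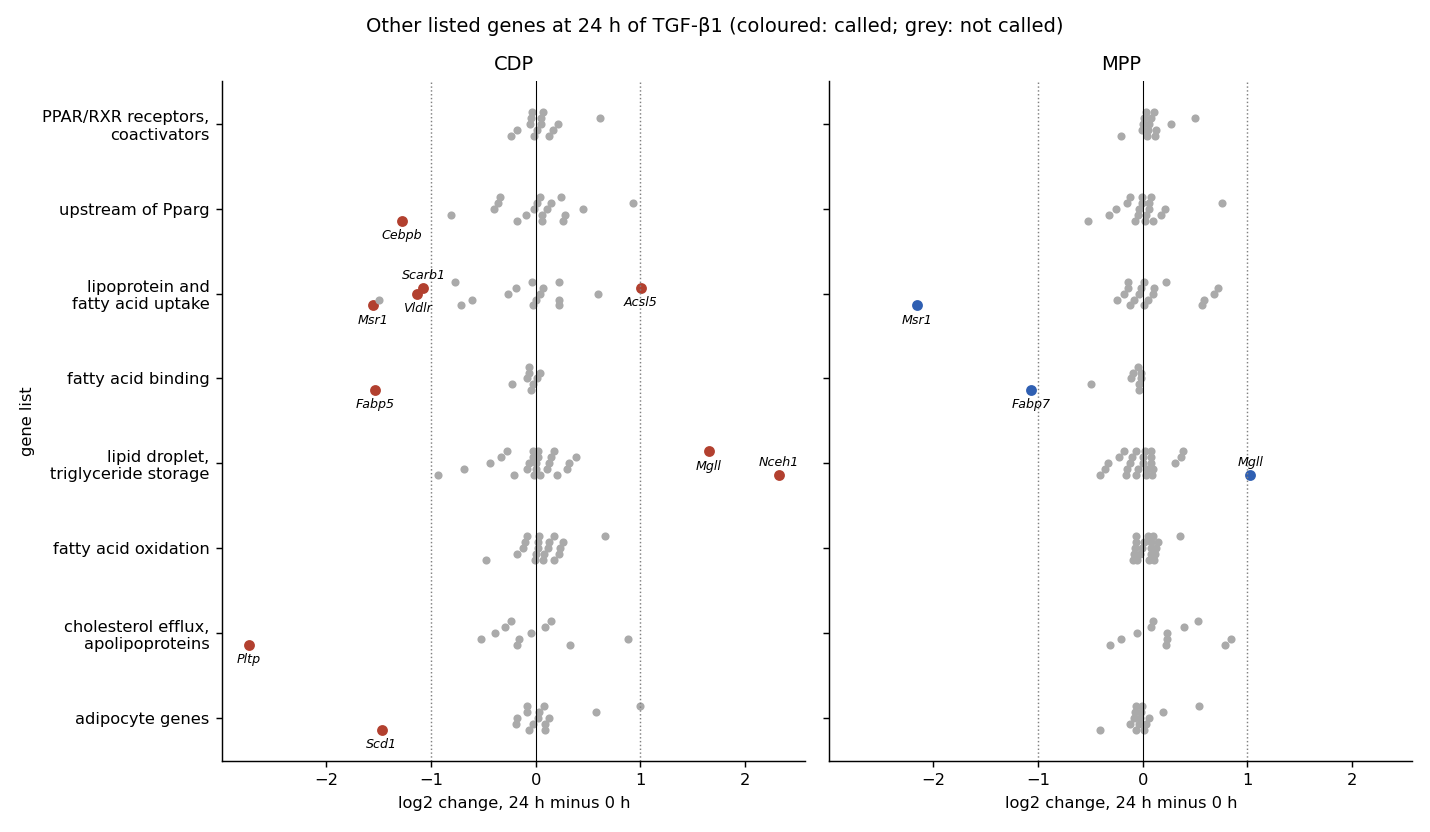
Log2 change at 24 h against 0 h of 131 other genes in 8 lists (rows), CDP on the left and MPP on the right, 1 point per gene, with dotted lines at 1 and -1. Coloured and named points were called, 3 higher and 7 lower in CDP and 1 higher and 2 lower in MPP, and most grey points lie near 0.

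In MPP the calls at 24 h were Msr1 (-2.15 ± 0.14, adjusted p = 2.15e-08), Fabp7, which encodes the brain type of fatty acid carrier (-1.07 ± 0.13, adjusted p = 1.78e-05), and Mgll (1.03 ± 0.09, adjusted p = 5.25e-07). Msr1 and Mgll were thus called in the same direction in both cell types. Without MPP replicate 1, or without its 0 h array alone, Msr1 was the 1 call left. The change in MPP was -0.31 ± 0.08 for Pltp (adjusted p = 0.0194) and -0.50 ± 0.07 for Fabp5 (adjusted p = 0.000149, under the limit of size).

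The difference of the responses was itself tested for these genes. The change at 24 h in CDP minus that in MPP was past both thresholds for 7 of the 131, 5.34%, against 1.85% of all genes. Nothing is read from this share, for the same reason. The difference was negative for Pltp (-2.43 ± 0.18), Vldlr (-1.72 ± 0.23), Apoe (-1.31 ± 0.29), Scd1 (-1.06 ± 0.20) and Fabp5 (-1.04 ± 0.11). It was positive for Nceh1 (1.96 ± 0.16) and Fabp7 (1.00 ± 0.15). Their adjusted p-values by limma ran from 2.08e-10 for Pltp to 0.00205 for Apoe. Vldlr was at 7.43, 7.48 and 7.41 in CDP at 24 h, against 8.92, 9.03 and 7.77 at 0 h, and at 10.39, 10.00 and 10.05 in MPP at 24 h, against 9.81, 9.73 and 9.14 at 0 h, so the cell types went opposite ways. Without the replicate block Apoe, Scd1 and Vldlr lost the call.

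**Figure D5:**
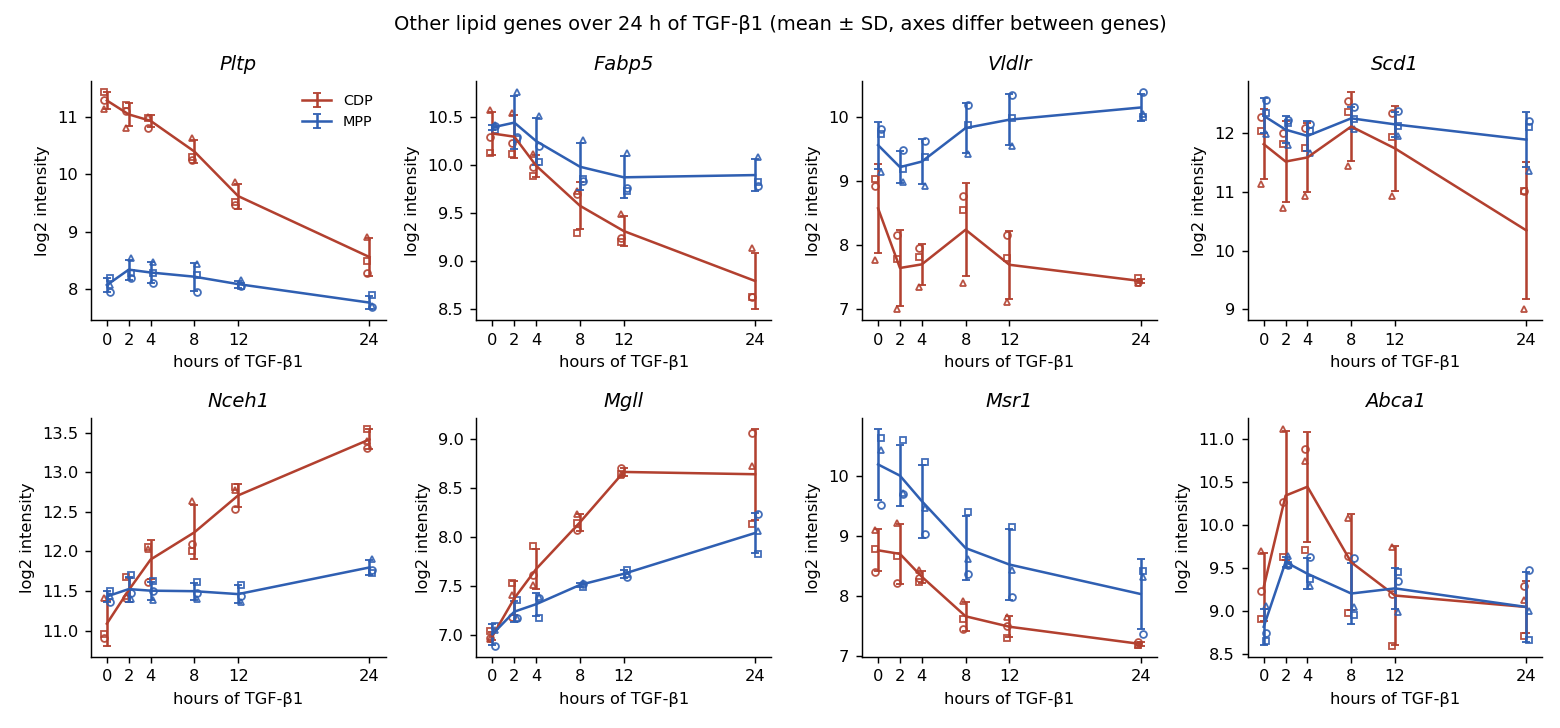
Log2 intensity of 8 other lipid genes against hours of TGF-β1, with 1 symbol per array and lines through the mean ± SD of 3 arrays, CDP in red and MPP in blue. Pltp and Fabp5 of CDP fall with time, Nceh1 of CDP climbs to 13.30 to 13.55, and Abca1 is highest at 2 or 4 h.

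In the untreated comparison 12 of the 131 were called between the cell types, 9.16%, against 2.81% of all genes, 3 higher and 9 lower in CDP. The lists were chosen with earlier results known, so this share too is given as a description. Higher were Pltp (3.23 ± 0.15), Cyp27a1, which makes oxysterols (1.64 ± 0.16), and the endothelial lipase gene Lipg (1.44 ± 0.31). Of those lower, Olr1, a receptor for oxidised lipoprotein, differed by -2.36 ± 0.32, the triglyceride synthesis gene Dgat2 by -1.86 ± 0.21, and the fatty acid oxidation genes Hadh and Cpt1a by -1.29 ± 0.11 and -1.14 ± 0.12. The myeloid and progenitor factor genes Cebpe (-1.94 ± 0.17), Gata2 (-1.80 ± 0.14) and Cebpa (-1.42 ± 0.22) were lower too, as was Msr1 (-1.43 ± 0.35). The ninth was Fabp7. Their adjusted p-values by limma ran from 7.00e-16 for Pltp to 0.00271 for Msr1. Pltp, which of the 131 fell most in CDP, started there far above its level in MPP.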

How the data were processed

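RNA of 18 CDP and 18 MPP arrays (Affymetrix Mouse Gene 1.0 ST, 3 per cell type and time) was analysed. What the authors deposited is a table of log2 intensities by probe set, which their processing notes attribute to Affymetrix Power Tools and RMA. This corrects background, sets all arrays to 1 distribution and summarises probes, so that changes are relative to other genes and changes of dim genes are compressed. Versions and a genome build are not given in the sources used here. Of 35556 probe sets 21789 carried 1 gene symbol, 1621 several and 12146 none. Those with 1 symbol were kept, for 999 genes with several probe sets the one with the highest mean, which left 19938 genes.

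limma 3.58.1 in R 4.3.3 (lmFit, eBayes, two-sided) compared each time with 0 h within 1 cell type (18 arrays) with replicate as a block, untreated cells on all 36 arrays without a block, and the difference of responses on all 36 with the block within cell type. Calls needed a Benjamini-Hochberg adjusted p under 0.01 over all genes and a log2 change of 1 or more. Errors are limma SE. The members were given no test in any contrast. The limma code was tested on simulated data. The block follows the study's methods. Residuals of same-numbered arrays at 2 to 24 h and at 0 h correlated above 0.1 in 15 of 15 pairs in CDP (lowest 0.212) and 15 of 15 in MPP (lowest 0.189), while over all pairs of times it was 43 of 45 in CDP and 45 of 45 in MPP.

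The members and all gene lists were chosen with earlier results of these data known. Named were the 5 members, in each comparison the called genes of the other lists, at most 8 a direction by size, and the 5 genes most like each member. Alternatives were the block, the choice of probe set, a filter on dim genes, 2 normalizations, the eBayes prior, and leaving out arrays. The number of arrays limits the precision.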

Additional observations from a re-analysis of the deposited data

Results flagged for a closer look

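Pparg lay on opposite sides of its start in the cell types. At 8, 12 and 24 h all 3 same-numbered pairs were lower than 0 h in CDP and all 3 were higher in MPP, and the change in CDP minus that in MPP was -1.10, -1.33 and -1.67. At 8 h the change in MPP was only 0.06 ± 0.07, and its arrays overlapped with those at 0 h. These differences were not tested, because the gene was chosen with them known.

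Of the other lipid genes, 7 differed between the cell types in their change at 24 h by the limma interaction contrast. The change in CDP minus the change in MPP was -2.43 for Pltp, -1.72 for Vldlr, -1.31 for Apoe, -1.06 for Scd1, -1.04 for Fabp5, 1.00 for Fabp7 and 1.96 for Nceh1. The change of Apoe was -0.52 ± 0.20 in CDP and 0.79 ± 0.18 in MPP. Fabp7 was low in CDP throughout, at 6.67 to 6.84 at 24 h and 6.74 to 6.84 at 0 h, while MPP was at 6.69, 7.01 and 6.76 at 24 h and at 8.00, 8.16 and 7.50 at 0 h. With groups of 3 arrays no search for single outlying arrays was made.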

How the results depend on the processing

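At 24 h Lpl and Plin2 kept their direction and stayed within the spread of replicates in CDP and MPP under every alternative tried. So did Fabp4 wherever it was kept. The filter on dim genes, with a mean log2 level under 6, left out Fabp4 and Cd36, so these have no value there. Leaving out 1 replicate or array gave 24 h changes in CDP of -1.524 to -1.072 for Pparg and -0.5652 to -0.1692 for Cd36, both nearest 0 without replicate 3. The CDP minus MPP difference then ran from -1.957 to -1.31 for Pparg and from -0.2739 to 0.171 for Cd36. In untreated cells it ran from 0.7271 to 1.063 for Pparg and from -1.19 to -0.8664 for Plin2, and Plin2 was at -0.9772 once the arrays were quantile normalized again. The count of other listed genes called in MPP ran from 1 to 3, and that of differing responses from 4 to 6, against 7 with all arrays. Without the replicate block that last count was 4, and CDP had 8 calls, against 10 with it. A block shared by the cell types changed no call in untreated cells. Of 25 genes most like a member by Pearson's r, 11 stayed among the closest by Spearman's rho. Single listed genes lost a call in 32 alternatives and kept it in 363. Without CDP replicate 3 at 2 h, an alternative chosen after seeing the data, CDP had 11 calls at 24 h, and Lpl in CDP at 2 h was -0.58, against -0.29 with it. The causes of these shifts were not tested.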

Other observations

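Of 12 genes of cholesterol efflux, 2 were called higher in CDP at 2 h and 1 in MPP at 4 h, and none was called lower at either of these. Of all genes 0.266% were called higher in CDP at 2 h and 0.281% in MPP at 4 h. The called genes of this list and these times were singled out after their values were seen. Abca1, which exports cholesterol, was at 10.27, 9.63 and 11.12 in CDP at 2 h, against 9.23, 8.90 and 9.69 in untreated CDP, a rise of 1.07 ± 0.17 (limma adjusted p = 0.0023). Its mean was 10.44 at 4 h, against 10.34 at 2 h and 9.27 at 0 h, and its change at 24 h was -0.23 ± 0.17. Mylip, whose product sends the LDL receptor to breakdown, was at 11.50, 11.72 and 11.58 in CDP at 2 h, against 10.35, 10.62 and 10.33 in untreated CDP, a rise of 1.17 ± 0.07 (limma adjusted p = 2.38e-07). In MPP at 4 h Abcg1, another cholesterol exporter, rose by 1.10 ± 0.10 (limma adjusted p = 2.00e-06), with arrays at 10.95, 10.58 and 10.87, against 9.89, 9.62 and 9.60 in untreated MPP. At 2 h in MPP the mean was already 10.62 for Abcg1, against 9.7 at 0 h, and 10.79 for Mylip, against 9.87. Abcg1 in CDP at 2 h (0.82 ± 0.12) was under the limit of size, Abca1 in MPP at 2 h (0.76 ± 0.17, limma adjusted p = 0.0112) missed both limits, and in CDP at 2 h the change was -0.66 ± 0.18 for Cyp27a1 (limma adjusted p = 0.0601) and -0.01 ± 0.20 for Apoe. Pltp of the same list had a mean of 11.05 in CDP at 2 h, against 11.29 at 0 h. The change of Nr1h3, the gene of an LXR receptor, was 0.46 ± 0.16 in CDP at 2 h (limma adjusted p = 0.176). The part of this receptor in the changes of the list was not tested.

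Cav1, which encodes the coat protein of caveolae and is known from fat cells, was called higher in CDP at 4, 8 and 12 h and in MPP at 4, 8 and 12 h, and at neither 2 nor 24 h. At 8 h it changed by 1.63 ± 0.27 in CDP and by 1.33 ± 0.15 in MPP. At 24 h the change of Cav1 in CDP was 0.998 ± 0.27 (limma adjusted p = 0.0108), just short of both limits. The SD of the CDP arrays at 24 h was 0.96. In MPP the mean was 7.27 at 24 h, against 6.72 at 0 h. Slc27a1, a fatty acid transporter, was called higher in MPP at 8 h (1.04 ± 0.10, limma adjusted p = 3.44e-06).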
